A study of Rattus norvegicus with 19 samples.

Results

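The comparison set every rat that had a craniectomy against rats that had none. Members were chosen by sample title: 5 sham-operated rats, 5 rats with mild traumatic brain injury (mTBI) and 5 rats with severe traumatic brain injury (sTBI) formed the 15 operated rats, out of 19 rats in all, and the other 4 were naive. All were adult male Sprague-Dawley rats, sampled once from the tail vein under isoflurane on day 2, with 1 small RNA library per rat. The sham group had anesthesia, lidocaine under the scalp, a midline incision, a circular craniectomy over the left hemisphere and a cap cemented to the skull, but no impact. The mTBI and sTBI groups had the same surgery followed by lateral fluid-percussion injury (FPI), a pressure pulse onto the dura, at a lower and a higher pressure. Naive rats had only a short isoflurane anesthesia on the day of TBI induction. The operated rats also received saline and buprenorphine, a pain reliever, after surgery, so the craniectomy, the longer anesthesia, the scalp wound and these drugs cannot be told apart. Per the study, mTBI and sTBI rats were given more saline the day after injury, and sTBI rats softened food. Between the operated groups this care cannot be told apart from the impact. The 3 operated groups were weighted equally, and the question was which plasma small RNAs moved the same way in all 3.

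MicroRNAs (miRNAs) are short RNAs that guide the Argonaute protein to messenger RNAs, mainly through bases 2 to 8 from their 5′ end, the seed. Cells release them into blood inside vesicles or bound to protein, and damaged cells leak them. Several are made almost only in 1 kind of tissue, such as miR-1, miR-133 and miR-206 in striated muscle, miR-9 and miR-124 in neurons, or miR-122 in hepatocytes, while the bulk of plasma miRNA comes from blood cells. A group of miRNAs in the imprinted Dlk1-Dio3 region, expressed from the maternal chromosome, is rich in brain and is also made in other tissues. In plasma, a change in the number of releasing cells and a change in release per cell cannot be told apart, and a list of tissue miRNAs names where they are abundant, not where these molecules came from.

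Each library held 16241433 to 21517763 reads and 2409545 to 5866757 miRNA molecules, counted by their unique molecular index (UMI). The counts of replicate libraries differed by far more than sampling noise, and p-values measure the spread between rats. Levels are given as CPM, the UMIs of a miRNA relative to all miRNA UMIs of its library, scaled to 1 common total with the TMM factors of edgeR (trimmed mean of M-values), and a miRNA passed where the adjusted p of the edgeR quasi-likelihood test was under 0.05. Among the libraries 4 stood apart, and leaving them out was chosen after seeing the data. mTBI 2, mTBI 5, naive 1 and naive 3 had 16.8, 12.6, 12.7 and 15.0 miRNA UMIs per spike-in UMI, against 5.53 to 9.37 in the other 15, so 2 of the 4 naive rats are in this set. The main counts, the list medians and the members whose call they changed are given with and without them.

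Of 748 miRNAs in the table, 713 had enough counts to be tested, and 20 (2.81%) passed between the operated and the naive rats. Higher in operated rats were 18 (2.52%), and lower were 2 (0.281%). Without any test, 424 of the 713 (59.5%) had log2 fold changes of 1 sign in sham, mTBI and sTBI, and all 20 that passed were among them. The 3 single contrasts share the 4 naive libraries and are not independent. By themselves, sham rats had 15 higher (2.10%) and 2 lower (0.281%), mTBI rats 17 higher (2.38%) and 0 lower, and sTBI rats 31 higher (4.35%) and 4 lower (0.561%). Those that passed in all 3 single contrasts were 6 miRNAs (0.842%): miR-133a-3p/133b-3p, which the table counts as 1 feature, miR-323-3p, miR-434-3p, miR-3543, miR-134-5p and miR-136-3p.

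The mature sequences of the miRNAs on which the results turn are shown because several share a seed or lie on opposite strands of the same bases. All 20 members matched a RefSeq entry, with 21 mature sequences and 18 distinct seeds. Bases 2 to 8 are in capitals, and positions are those of RefSeq on GRCr8, which is not the build the study aligned to. The muscle miRNAs were these, with miR-1-3p, miR-1b and miR-206-3p sharing 1 seed and miR-133a-3p and miR-133b-3p another.
rno-miR-133a-3p: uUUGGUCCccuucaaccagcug
rno-miR-133b-3p: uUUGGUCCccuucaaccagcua
rno-miR-133c: cAGCUGGUugaaggggaccaa
rno-miR-1-3p: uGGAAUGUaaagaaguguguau
rno-miR-1b: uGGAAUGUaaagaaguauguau
rno-miR-206-3p: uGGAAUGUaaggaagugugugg
rno-miR-3571: uACACACUucuuuacauuccaua
Their positions were chr18:2157886-2157907 on the minus strand for miR-133a-3p, chr9:30594629-30594650 on the plus strand for miR-133b-3p and chr18:2157886-2157906 on the plus strand for miR-133c. For miR-1-3p the position was chr18:2160339-2160360 (minus), for miR-3571 chr18:2160340-2160362 (plus), for miR-1b chr3:187864736-187864757 (plus) and for miR-206-3p chr9:30590747-30590768 (plus).

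The other members that passed in each single contrast are all from the imprinted region on chromosome 6, and miR-9a-3p is shown with them as the brain miRNA with the largest change. None of these shares a seed with another member.
rno-miR-434-3p: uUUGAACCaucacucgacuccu
rno-miR-3543: cAGGAGUCgagugaugguucaaa
rno-miR-136-3p: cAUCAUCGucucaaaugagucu
rno-miR-323-3p: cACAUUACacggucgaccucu
rno-miR-134-5p: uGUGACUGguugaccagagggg
rno-miR-9a-3p: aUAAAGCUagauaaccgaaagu
The positions were chr6:134330451-134330472 (plus) for miR-434-3p, chr6:134330451-134330473 (minus) for miR-3543, chr6:134331383-134331404 for miR-136-3p, chr6:134546994-134547014 for miR-323-3p and chr6:134570320-134570341 for miR-134-5p. miR-9a-3p is encoded at more than 1 locus.

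A group of muscle miRNAs was higher in the plasma of operated rats. Of the 14 muscle miRNAs tested, 7 passed and all 7 were higher in operated rats, against 18 higher of 713 (2.52%) over all miRNAs. The 7 may not be independent. miR-133c and miR-3571 are reverse complements of other members, miR-1b is a near copy of miR-1-3p, and miR-133a-5p is an arm of the miR-133a hairpin. This and the other lists were chosen with earlier results of these data known, so such shares only describe these data. The median log2 fold change of the 14 was 1.54, against -0.01 over all 713, and it was 1.75 in sham, 1.58 in mTBI and 1.01 in sTBI rats. Summed over the list, the level was 2459 to 9667 CPM in sham, 3008 to 6664 CPM in mTBI, 1589 to 2789 CPM in sTBI and 561 to 1404 CPM in naive rats, so no operated rat overlapped a naive one.

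The feature miR-133a-3p/133b-3p, whose miRNAs restrain serum response factor in muscle, was at 504, 1175 and 3073 CPM in operated rats (lowest, median and highest of 15), against 191, 500, 271 and 194 CPM in the 4 naive rats. Every operated rat was above every naive rat, and the lowest of them, an sTBI rat, was next to the highest naive value. The log2 fold change was 2.22 (SE 0.36, edgeR adjusted p = 3.13e-04), or 4.66-fold, and by group 2.47 in sham, 2.83 in mTBI and 1.36 in sTBI rats. miR-206-3p, which is made in skeletal muscle and promotes its differentiation and regeneration, was at 592, 1193 and 5523 CPM in operated rats, against 180, 584, 298 and 356 CPM in naive rats. The groups did not overlap, and the highest level was in sham 5. Its log2 fold change was 2.11 (SE 0.43, edgeR adjusted p = 0.00416), with a group mean of 2346 ± 1922 CPM in sham, 1794 ± 558 CPM in mTBI, 853 ± 208 CPM in sTBI (SD, n = 5 each) and 355 ± 170 CPM in naive rats (SD, n = 4).

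miR-1-3p, shared by heart and skeletal muscle, was at 106, 261 and 699 CPM in operated rats, against 68.3, 133, 134 and 64.7 CPM in naive rats. All but 1 operated rat, of the sTBI group, lay above the highest naive value. The log2 fold change was 1.63 (SE 0.36, edgeR adjusted p = 0.00789). Its near copy miR-1b, with 1 mismatch over 22 aligned bases, was at 62.3, 126 and 288 CPM in operated rats, against 39.4, 53.4, 60.1 and 34.1 CPM in naive rats, with no overlap. miR-1b rose by 1.63 on the log2 scale (SE 0.30, edgeR adjusted p = 0.00122). The passenger arm miR-133a-5p was scarce, at 4.24, 10.7 and 33.6 CPM in operated rats (17 to 134 UMIs), against 2.26, 5.87, 3.18 and 1.36 CPM in naive rats (4 to 19 UMIs). It lay above all naive rats in 12 of 15 operated rats, and its log2 fold change was 1.86 (SE 0.47, edgeR adjusted p = 0.0317).

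**Figure D1:**
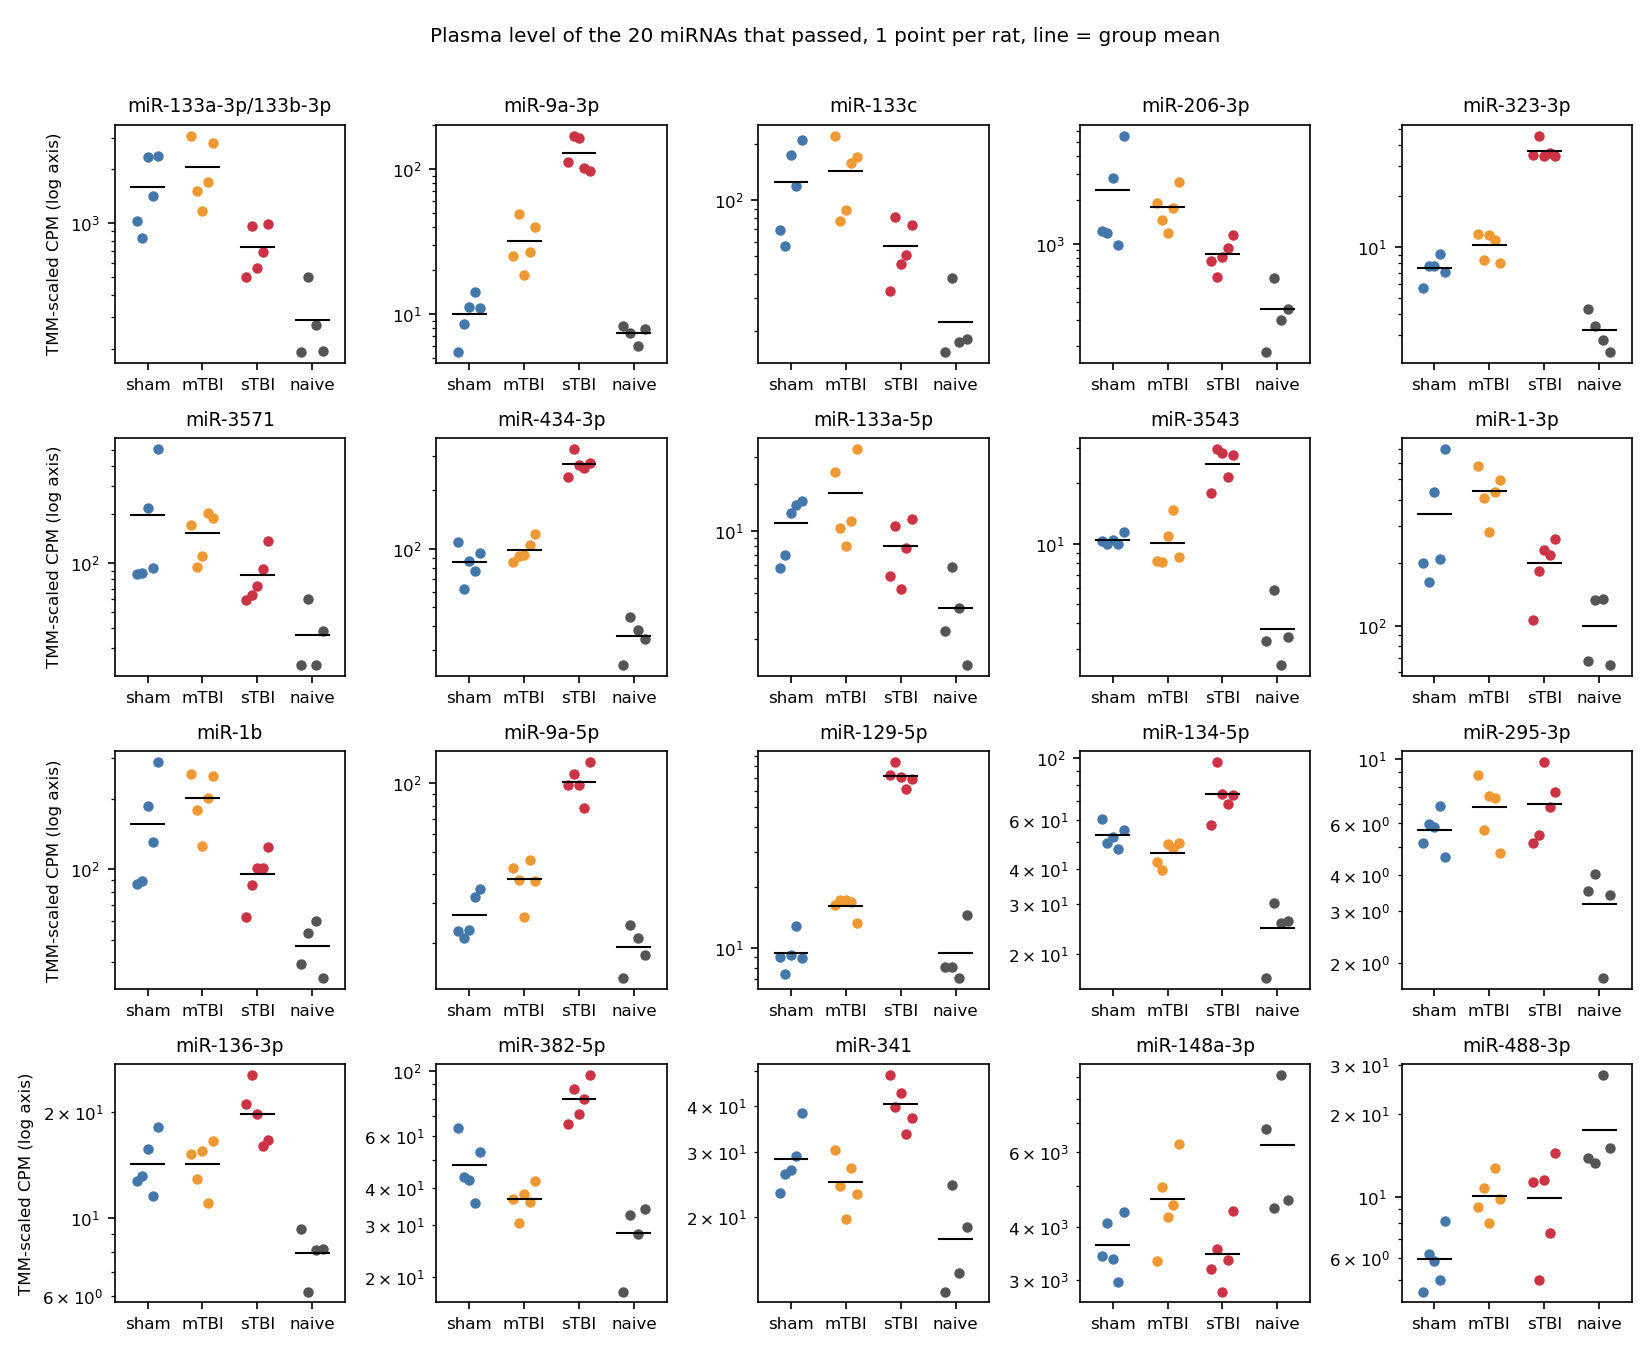
Level of each of the 20 miRNAs that passed, in TMM-scaled CPM on a log axis, with 1 point per rat and the group mean as a line, for sham, mTBI, sTBI and naive rats from left to right. For the muscle miRNAs the sTBI mean line is below those of sham and mTBI and above that of naive rats, whereas for miR-323-3p, miR-129-5p and miR-9a-3p all sTBI points stand above all others.

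The remaining muscle miRNAs did not pass. miR-208b-3p, from an intron of a slow myosin gene, had a log2 fold change of 0.82 (edgeR adjusted p = 0.115), and miR-499-5p, from a related myosin gene, one of -0.87 (adjusted p = 0.196). The heart miRNA miR-208a-3p had 0.36, miR-499-3p 1.45, miR-133b-5p 0.46, miR-1-5p 0.23 and miR-208b-5p 0.20, and none of these passed. In the test among sham, mTBI and sTBI rats 0 of the 14 passed (18 of 713, or 2.52%, over all miRNAs). For miR-133a-3p/133b-3p sTBI minus sham was -1.11 on the log2 scale (edgeR adjusted p = 0.136), and the test of the 3 operated groups gave an adjusted p of 0.0522.

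The muscle calls rest in part on the libraries that stood apart. Without mTBI 2, mTBI 5, naive 1 and naive 3, only 2 naive rats remain, and 0 of the 7 muscle calls were kept, with log2 fold changes of 1.47 to 1.91 and adjusted p-values of 0.115 to 0.733. The list median was then 1.44, with 13 of 14 members positive. At an unadjusted p under 0.05 by edgeR, 6 members were higher (42.9%, against 4.52% over all miRNAs) and 0 lower. The direction of the list did not depend on the scaling: 13 of 14 members were positive and 7 passed with TMM, RLE, total counts or spike-in totals as the library size.

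Some imprinted miRNAs of the Dlk1-Dio3 region rose as well, a smaller share of the list but with the smallest p-values. Of 85 tested, 7 passed, all higher in operated rats, against 18 higher of 713 (2.52%) over all miRNAs. At an unadjusted p under 0.05, 26 were higher (30.6%) and 2 lower (2.35%), against 10.1% and 8.27% over all 713. The median log2 fold change was 0.27, and their summed level of 1462 to 1764 CPM in sham, 1413 to 1713 CPM in mTBI and 1975 to 2177 CPM in sTBI overlapped the 1396 to 1922 CPM in naive rats, except that all sTBI rats lay above them.

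miR-434-3p, which in mouse lies antisense to the imprinted gene Rtl1, was at 62.4, 105 and 327 CPM in operated rats, against 25.1, 44.8, 38.2 and 34.4 CPM in naive rats. All 15 operated rats were above all 4 naive rats, and all 5 sTBI rats, at 235 to 327 CPM, were above the sham rats at 62.4 to 109 CPM and the mTBI rats at 85.01 to 119 CPM. The log2 fold change was 1.89 (SE 0.19, edgeR adjusted p = 4.36e-07), and by group 1.27, 1.47 and 2.94 in sham, mTBI and sTBI rats. miR-323-3p, from the large cluster downstream, was scarce in naive rats (7 to 17 UMIs). Its level was 5.74, 11.0 and 45.3 CPM in operated rats, against 4.27, 3.40, 2.83 and 2.39 CPM in naive rats, again with no overlap. This was the smallest p of all miRNAs tested, with a log2 fold change of 2.10 (SE 0.19, edgeR adjusted p = 2.79e-07), made of 2.27-fold in sham, 3.11-fold in mTBI and 11.2-fold in sTBI rats.

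miR-134-5p, which acts at neuronal dendrites and limits spine size, had 39.8, 52.0 and 96.6 CPM in operated rats, against 16.3, 30.3, 25.8 and 26.2 CPM in naive rats. The groups did not overlap, and the increase was more even, at 2.15-fold in sham, 1.86-fold in mTBI and 3.01-fold in sTBI rats. Its log2 fold change was 1.20 (SE 0.17, edgeR adjusted p = 5.14e-05), and the test among the operated groups gave an adjusted p of 0.0518. miR-136-3p, in mouse also antisense to Rtl1, had 11.0, 15.7 and 25.4 CPM in operated rats, against 9.29, 6.18, 8.13 and 8.18 CPM in naive rats, without overlap. It rose by 0.99 on the log2 scale (SE 0.17, edgeR adjusted p = 8.06e-04), at 1.78-fold, 1.79-fold and 2.48-fold in sham, mTBI and sTBI rats. The test among these 3 groups gave an adjusted p of 0.199.

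miR-382-5p and miR-341 were named after their values were seen, being the other members of the region that passed. miR-382-5p, from the same large cluster as miR-134-5p, was at 30.5, 43.5 and 96.7 CPM in operated rats, against 17.8, 32.4, 27.9 and 34.1 CPM in naive rats, with 14 of 15 operated rats above the naive ones (log2 fold change 0.89, SE 0.18, edgeR adjusted p = 0.00349). miR-341 was at 19.8, 29.4 and 48.6 CPM in operated rats, against 12.6, 24.4, 14.1 and 18.7 CPM in naive rats, with 11 of 15 above (log2 fold change 0.82, SE 0.18, edgeR adjusted p = 0.00754). Without the 4 libraries that stood apart, the median of the list was 0.07 and 5 of the 7 calls in the region were kept. The pair lost was miR-382-5p (adjusted p = 0.356) and miR-341 (adjusted p = 0.634).

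**Figure D2:**
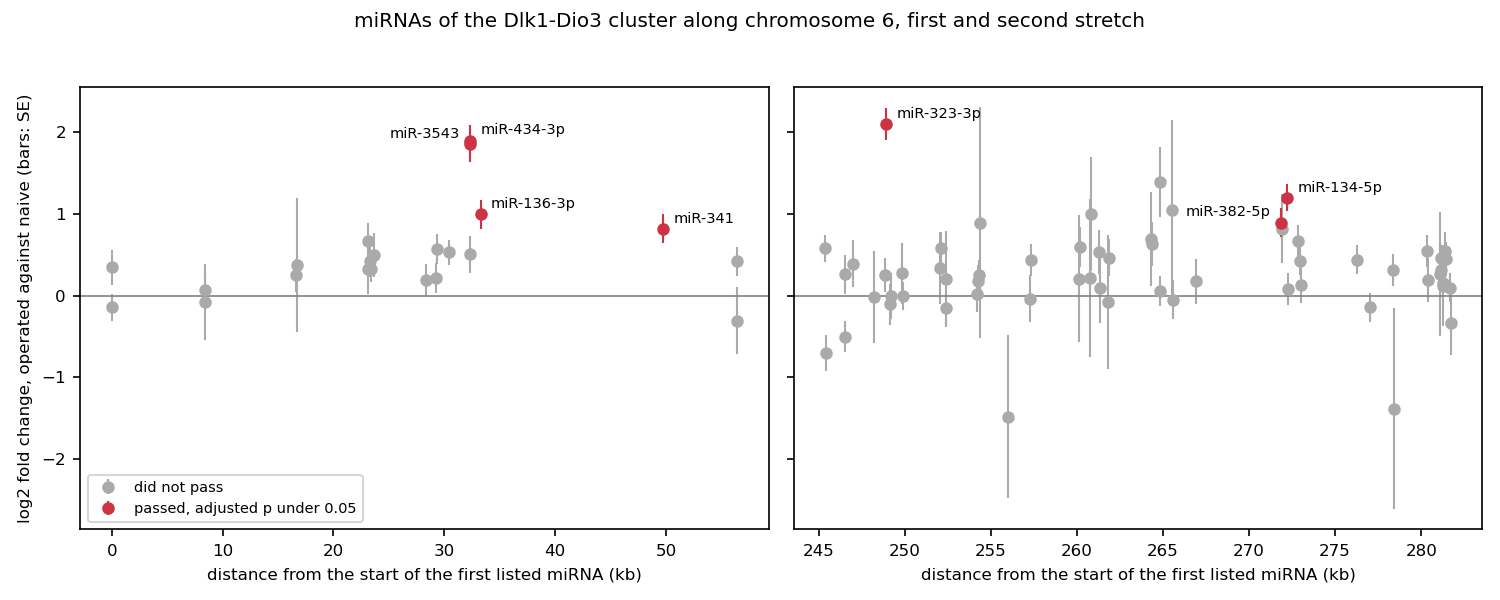
Log2 fold change of operated against naive rats for the listed miRNAs of the Dlk1-Dio3 region, by distance in kb from the first of them on chromosome 6, in 2 panels for the 2 stretches that hold miRNAs, with the standard error as a bar. The 7 that passed, in red, lie between 32.4 and 272 kb, among neighbours in grey that are mostly above 0 but did not pass.

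The miRNAs that passed were spread along the region. Of the list, 82 had a RefSeq position on chromosome 6, over 282 kb, and 66 of these had a log2 fold change above 0. Of the whole list 67 of 85 were above 0, against 347 of 713 over all miRNAs. Without the 4 libraries that stood apart, 49 of 85 were above 0, against 373 of 730 over all miRNAs. miR-434-3p, miR-3543 and miR-136-3p lay at 32.4 to 33.3 kb from the first listed miRNA, and miR-382-5p and miR-134-5p both lay at 272 kb. None of the opposite arms tested from these hairpins passed. miR-323-5p had a log2 fold change of 0.25 (edgeR adjusted p = 0.531), miR-434-5p 0.50 (0.233), miR-134-3p 0.08 (0.868) and miR-382-3p 0.82 (0.300). Unlike these, miR-136-5p was negative, at -0.19 (edgeR adjusted p = 0.852), with -0.26 in sham, -0.17 in mTBI and -0.15 in sTBI rats. The level of miR-323-5p, at a mean of 90.3, 85.8 and 80.4 CPM in sham, mTBI and sTBI rats and 71.6 CPM in naive rats, was above that of miR-323-3p in each group.

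In the brain list few members passed. Of 58 tested, 3 were higher and 1 lower in operated rats (18 of 713, or 2.52%, and 2 of 713, or 0.281%, over all miRNAs), and the median log2 fold change was 0.13. At an unadjusted p under 0.05, 11 were higher (19.0%) and 2 lower (3.45%), against 10.1% and 8.27% over all miRNAs, and 8 of 58 passed in the test among the operated groups (18 of 713, or 2.52%, over all). The summed level was 4619 to 6608 CPM in sham, 5339 to 7494 CPM in mTBI, 7078 to 10315 CPM in sTBI and 5095 to 7942 CPM in naive rats. All sTBI sums were above all sham sums, and each operated group overlapped the naive rats. Without the 4 libraries that stood apart the median was 0.06, and 3 members passed, all higher. The 3 that rose did not pass in sham rats alone, where their log2 fold changes were 0.01 to 0.46.

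miR-9a-3p, from a miRNA that governs neural progenitors and is abundant in the brain, was at 5.44, 26.9 and 169 CPM in operated rats, against 8.28, 7.41, 6.01 and 7.84 CPM in naive rats. Sham rats, at 5.44 to 14.1 CPM, overlapped the naive rats, whereas mTBI rats, at 18.4 to 48.8 CPM, and sTBI rats, at 96.97 to 169 CPM, lay above them. The pooled log2 fold change was 2.21 (SE 0.28, edgeR adjusted p = 1.24e-05), from 0.43 in sham (adjusted p = 0.450), 2.09 in mTBI and 4.11 in sTBI rats. Its other arm miR-9a-5p was at 21.1, 38.0 and 124 CPM in operated rats, against 14.1, 24.1, 21.2 and 17.7 CPM in naive rats. Here 12 of 15 operated rats were above the naive ones, and sham rats overlapped them. The pooled log2 fold change was 1.28 (SE 0.19, edgeR adjusted p = 1.13e-04), with 0.46 in sham (adjusted p = 0.239), 0.99 in mTBI and 2.40 in sTBI rats.

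miR-129-5p, a neuronal miRNA that restrains potassium channel translation, was at 7.46, 17.0 and 83.7 CPM in operated rats, against 8.03, 8.03, 7.07 and 14.7 CPM in naive rats. Only 9 of 15 operated rats were above the highest naive rat, naive 4. Its pooled log2 fold change was 1.24 (SE 0.18, edgeR adjusted p = 1.13e-04), although it was 0.01 in sham rats (adjusted p = 0.981), 0.79 in mTBI and 2.92 in sTBI rats. The opposite arm miR-129-3p had 0.58 (edgeR adjusted p = 0.327). For miR-124-3p, the most neuron-specific of the list, the log2 fold change of 2.09 came with an SE of 0.83 and did not pass (adjusted p = 0.196). Among the other settings, miR-124-3p passed only with DESeq2 in place of edgeR and among the libraries with running numbers 10 to 20 in their descriptions.

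**Figure D3:**
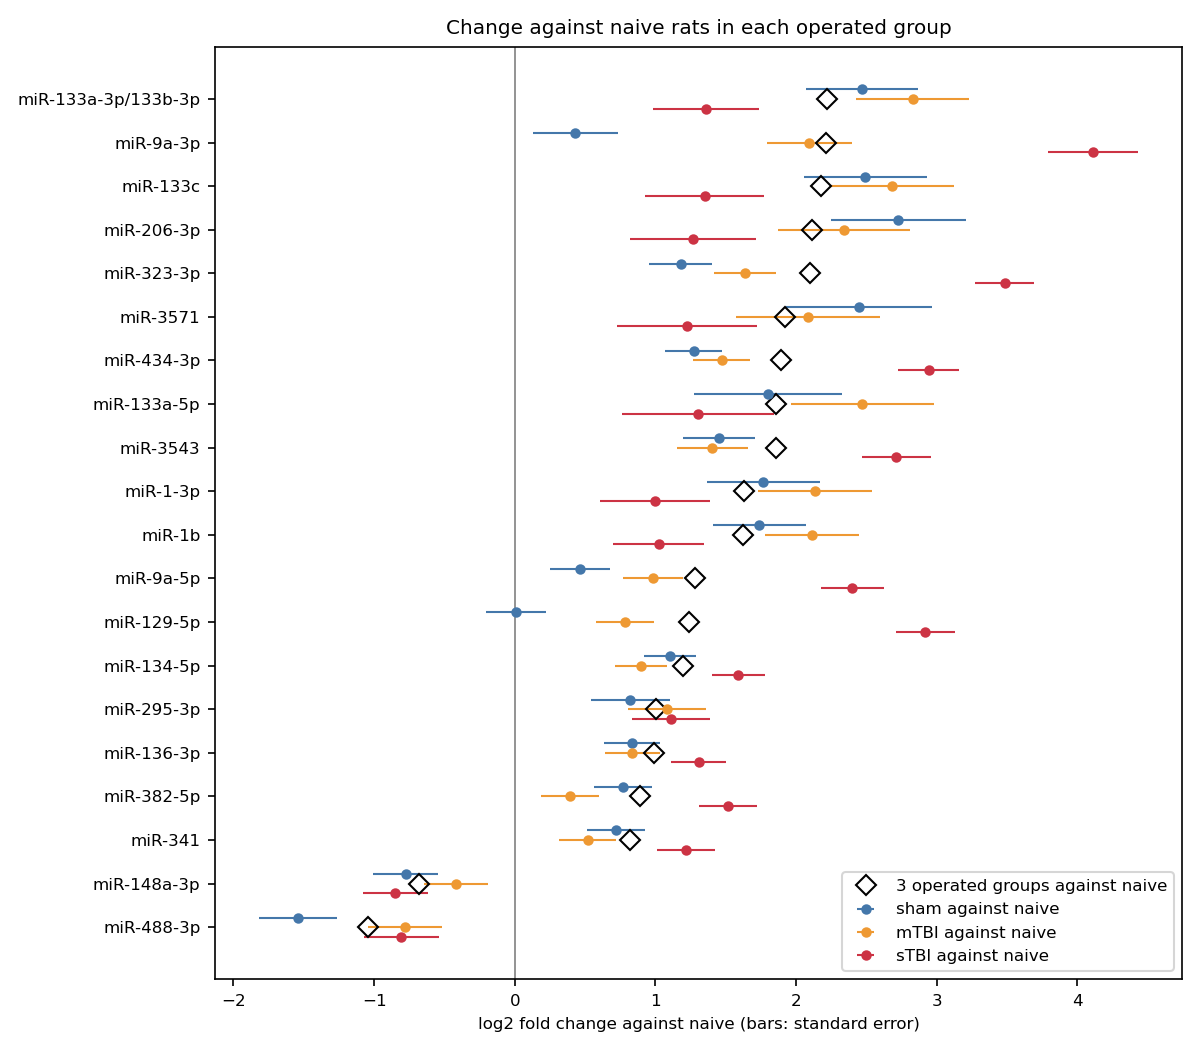
Log2 fold change against naive rats of the 20 miRNAs that passed, for sham, mTBI and sTBI rats as points with the standard error as a bar, and for the 3 groups weighted equally as a diamond. The points of the muscle miRNAs have sTBI nearest to 0, while for miR-9a-3p, miR-129-5p, miR-323-3p and miR-434-3p sTBI is farthest, and the sham points lie at 0.01 for miR-129-5p, 0.43 for miR-9a-3p and 0.46 for miR-9a-5p.

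Of the 20 miRNAs, 7 also differed among the operated groups by the edgeR test of sham, mTBI and sTBI: miR-129-5p (adjusted p = 2.25e-10), miR-323-3p (1.17e-09), miR-9a-3p (4.09e-09), miR-9a-5p (4.80e-07), miR-434-3p (5.98e-07), miR-3543 (6.36e-05) and miR-382-5p (0.00142). All 7 were higher in sTBI than in sham rats, by 0.75 (miR-382-5p) to 3.68 (miR-9a-3p) on the log2 scale. Among the 7, only miR-9a-3p passed between mTBI and sham rats, higher in mTBI by 1.66 (adjusted p = 0.00262). Against naive rats, miR-129-5p had a log2 fold change of 0.79 in mTBI and 0.01 in sham rats, and miR-9a-5p 0.99 and 0.46. The mTBI value was also the larger for miR-434-3p (1.47, sham 1.27) and miR-323-3p (1.64, sham 1.18). For miR-3543 (1.41, sham 1.45) and miR-382-5p (0.39, sham 0.77) the mTBI value was the smaller.

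The decreases were few. miR-488-3p, from an intron of the astrotactin gene Astn1 and placed on the brain list, was at 4.53, 8.18 and 14.4 CPM in operated rats, against 13.8, 13.3, 27.6 and 15.0 CPM in naive rats. All but 1 operated rat were below every naive rat, and naive 3 was highest. It fell by 1.04 on the log2 scale (SE 0.22, edgeR adjusted p = 0.00416), and its opposite arm miR-488-5p had -0.09 (adjusted p = 0.852). miR-148a-3p, abundant in liver and lymphocytes, was at 2822, 3554 and 6256 CPM in operated rats, against 6789, 4423, 9074 and 4630 CPM in naive rats. The highest naive values were those of naive 1 and naive 3, and 12 of 15 operated rats lay below all naive rats. Its log2 fold change was -0.68 (SE 0.19, edgeR adjusted p = 0.0482), and it missed the threshold in 19 of 31 other settings. Without the 4 libraries that stood apart both calls were lost, with -0.80 (adjusted p = 0.356) for miR-488-3p and -0.33 (adjusted p = 0.787) for miR-148a-3p.

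miR-148a-3p was the sole call of the liver list. Of its 11 members, 1 passed, lower (2 of 713, or 0.281%, over all miRNAs), 9 were lower in all 3 operated groups (216 of 713, or 30.3%, over all miRNAs), 5 were lower at an unadjusted p under 0.05 (45.5%, against 8.27%), and the median log2 fold change was -0.48. miR-215, made in gut, kidney and liver, was the only miRNA with all 15 operated rats below all 4 naive rats (0.140% of 713), at 1504, 2333 and 3284 CPM in operated rats, against 3694, 3652, 4261 and 3401 CPM in naive rats. It stood just outside the threshold (log2 fold change -0.74, SE 0.21, edgeR adjusted p = 0.0579). miR-194-5p, which is transcribed together with the miR-192 and miR-215 family, had -0.70 (adjusted p = 0.193). The defining hepatocyte miRNA miR-122-5p had -0.48 (SE 0.60, adjusted p = 0.715). The summed level of the list, 33044 to 211858 CPM in operated rats and 32623 to 216407 CPM in naive rats, overlapped throughout, and the highest 3 sums were those of mTBI 2, mTBI 5 and naive 3, which are among the libraries that stood apart. Without the 4 libraries the liver median was -0.06, with 7 of 11 members negative, 1 lower at an unadjusted p under 0.05 and 0 passing. The log2 fold change was then -0.68 for miR-215 (edgeR adjusted p = 0.409), -0.13 for miR-194-5p and 0.40 for miR-122-5p (adjusted p = 0.971 each).

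**Figure D4:**
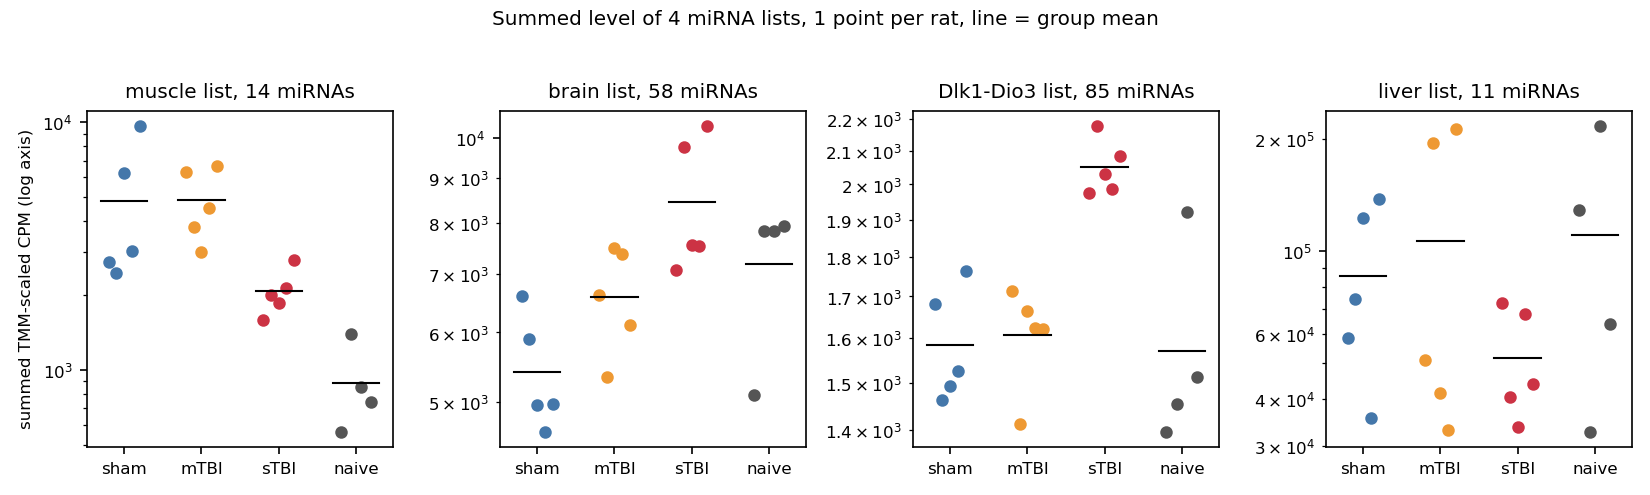
Summed level of the muscle, brain, Dlk1-Dio3 and liver lists in TMM-scaled CPM on log axes, with 1 point per rat and the group mean as a line, for sham, mTBI, sTBI and naive rats from left to right. The muscle sums of operated rats, 1589 CPM and above, do not overlap those of naive rats, 1404 CPM and below, whereas the liver sums span the same range in operated and naive rats.

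In the blood cell, vessel and epithelial lists the counts were near the share over all miRNAs (20 of 713, or 2.81%), which is under 1 member in lists of this size. Passing were 0 of 21 erythrocyte, 0 of 22 leukocyte, 0 of 18 platelet, 0 of 22 endothelial and stromal and 0 of 28 epithelial and endocrine miRNAs by edgeR, with median log2 fold changes of 0.02, -0.15, -0.11, -0.41 and -0.02. Unadjusted p-values were under 0.05 for 1, 5, 1, 1 and 2 of their members in either direction, against 131 of 713 (18.4%) over all miRNAs. Without the 4 libraries that stood apart the medians were -0.05, -0.22, -0.20, 0.12 and 0.38, so the erythrocyte, vessel and epithelial medians changed sign. Again 0 members passed by edgeR, and 0, 0, 0, 1 and 0 members had an unadjusted p under 0.05. With total counts in place of TMM the median over all 713 miRNAs moved to 0.20, and the leukocyte (0.06), platelet (0.08) and epithelial and endocrine (0.24) medians became positive. The erythrocyte median was negative with RLE (-0.01) and spike-in totals (-0.05). The members nearest to the threshold were miR-181b-1-3p (-0.76, adjusted p = 0.0622) and miR-142-5p (-0.58, adjusted p = 0.0886) of leukocytes, miR-22-5p (-0.39, adjusted p = 0.253) of platelets, miR-15a-3p (1.27, adjusted p = 0.237) of erythrocytes, and miR-375-5p (0.53, adjusted p = 0.230) of endocrine cells. miR-143-3p, a smooth muscle miRNA and the leading member of the vessel list, was at 127421, 8868, 103388 and 11572 CPM in the naive rats, and in operated rats it reached 100119 CPM in mTBI 5 and 68613 CPM in mTBI 2, against 4462 to 28738 CPM in the others. The high values were those of the 4 libraries that stood apart, and its log2 fold change was -1.54 with them (SE 0.71, edgeR adjusted p = 0.254) and 0.42 without them (adjusted p = 0.974). The reference miRNA of the study, miR-28-3p, had a log2 fold change of -0.30 (edgeR adjusted p = 0.444), with 429, 524 and 966 CPM in operated rats, against 918, 542, 796 and 509 CPM in naive rats.

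Outside the lists, miR-295-3p, in mouse a miRNA of embryonic stem cells, passed at low counts, and it was named after its values were seen. It was at 4.62, 5.97 and 9.74 CPM in operated rats (13 to 44 UMIs), against 3.51, 4.02, 1.77 and 3.41 CPM in naive rats (5 to 14 UMIs), with no overlap. The log2 fold change was 1.01 (SE 0.24, edgeR adjusted p = 0.0198), and it missed the threshold in 8 of 31 other settings, among them read counts, counts under 10 set to 0, and leaving out mTBI 1, sTBI 5, naive 1 or naive 3. In all, 12 miRNAs (1.68% of 713) had every operated rat above every naive rat. Of these 9 passed the test, and the others were miR-379-5p (log2 fold change 0.58, adjusted p = 0.0600) and miR-487b-3p (1.39, adjusted p = 0.0884) of the Dlk1-Dio3 region and miR-880-3p (0.70, adjusted p = 0.114). miR-140-5p, a cartilage miRNA, was also just outside the threshold, at -0.56 (adjusted p = 0.0600), and miR-3568 at 0.64 (adjusted p = 0.0669). These last 5 miRNAs were named after their values were seen.

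Among the 20 were 3 pairs of miRNAs encoded on opposite strands of the same bases. miR-133c is the reverse complement of miR-133a-3p over 21 aligned bases with 0 mismatches, miR-3571 that of miR-1-3p over 21 bases with 0 mismatches, and miR-3543 that of miR-434-3p over 22 bases with 0 mismatches. miR-3571 also matches the reverse complement of miR-206-3p with 2 mismatches over 21 bases. Of 40 such pairs among the tested miRNAs (at least 15 overlapping bases), both members passed in 3, and neither passed in 35. Whether the counting used the strand of a read is not given in the sources used here. It is therefore not known whether reads of such a pair were told apart, and the members of a pair may not be independent of each other.

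miR-133c was at 32.6, 81.1 and 221 CPM in operated rats, against 15.3, 38.3, 17.3 and 18.1 CPM in naive rats (log2 fold change 2.17, SE 0.40, edgeR adjusted p = 0.00159). In 14 of 15 operated rats it was above every naive rat, of which naive 2 was highest. As a share of miR-133a-3p/133b-3p it was 5.11 to 9.28% in operated rats and 6.39 to 9.31% in naive rats, while its partner ranged from 191 to 3073 CPM. miR-3543 was at 8.08, 11.0 and 29.6 CPM in operated rats, against 3.26, 5.87, 2.47 and 3.41 CPM in naive rats, with no overlap (log2 fold change 1.86, SE 0.23, edgeR adjusted p = 1.08e-05). It made 7.16 to 15.9% of miR-434-3p in operated rats and 6.48 to 13.1% in naive rats. miR-3571 was at 59.9, 94.8 and 506 CPM in operated rats, against 23.6, 60.2, 23.7 and 38.2 CPM in naive rats (log2 fold change 1.92, SE 0.46, edgeR adjusted p = 0.0226). Only 1 of 15 operated rats was not above the highest naive rat. Relative to miR-1-3p it varied from 23.3 to 72.4% in operated rats and 17.7 to 58.9% in naive rats, and relative to miR-206-3p from 6.55 to 11.9% and 7.96 to 13.1%. The share thus varied less against miR-206-3p, the partner with mismatches, than against miR-1-3p.

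**Figure D5:**
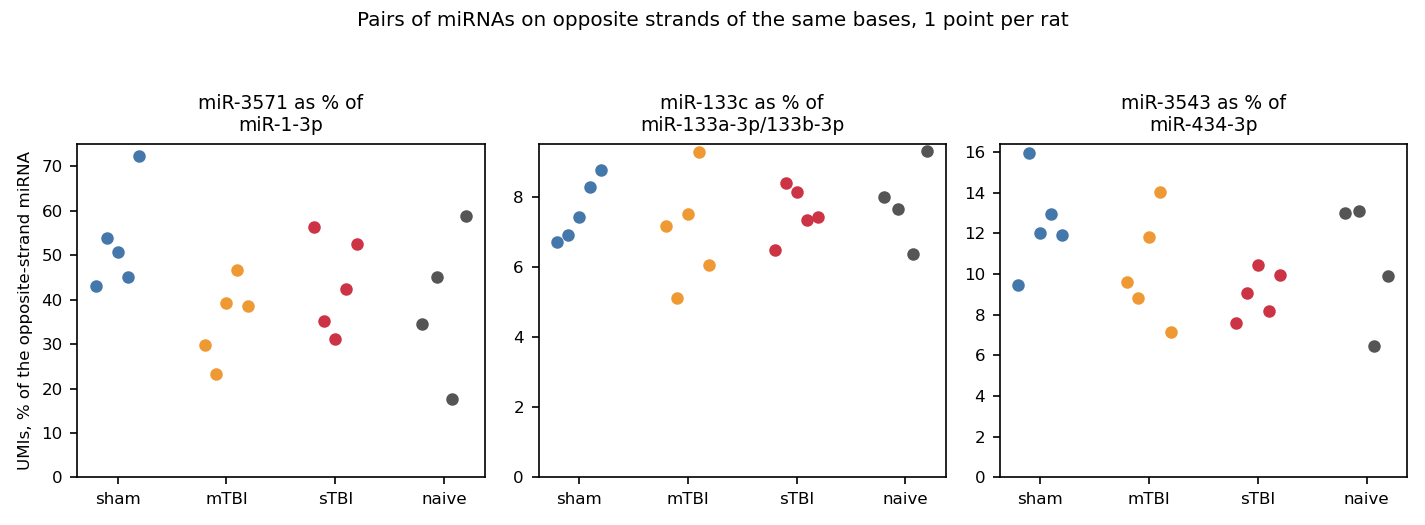
UMIs of 3 miRNAs as a percentage of the UMIs of the miRNA on the opposite strand, with 1 point per rat for sham, mTBI, sTBI and naive rats from left to right and axes from 0. Operated and naive rats overlap in each panel, with miR-133c between 5.11 and 9.31% of its partner in all 19 rats.

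The count of calls depended on single naive rats. Without naive 1 it was 13 and without naive 3 it was 14, while without naive 2 it was 41 (21 higher, 20 lower) and without naive 4 it was 37 (18 higher, 19 lower), against 20 with all 4. Leaving out naive 1 lost miR-1-3p, miR-133a-5p, miR-148a-3p, miR-295-3p, miR-341, miR-3571 and miR-382-5p. Leaving out naive 3 lost miR-133a-5p, miR-148a-3p, miR-295-3p, miR-341, miR-3571 and miR-488-3p. Without all 4 libraries that stood apart 10 passed, of which 8 were among the 20: miR-434-3p, miR-3543, miR-323-3p, miR-136-3p, miR-134-5p, miR-129-5p and both arms of miR-9a. The count of miRNAs that passed in each single contrast fell to 0 there, and also to 0 among the libraries with running numbers 10 to 20 in their descriptions. What this number stands for is not given in the sources used here. The naive libraries hold numbers from 12 to 20, while 8 of the 15 operated ones hold numbers from 1 to 8, so an effect of a processing order cannot be fully told apart from the operation. Across all 31 other settings, miR-134-5p, miR-136-3p, miR-3543 and miR-434-3p passed between all operated and the naive rats in every one. The set that passed in each single contrast varied more, with 4 miRNAs under spike-in totals and 10 with DESeq2. miR-136-3p was not in that set with spike-in totals or total counts.

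Transfer RNA (tRNA) features, mostly fragments of tRNAs that plasma carries in quantity, moved less clearly. Of 386 features 332 were tested, and 1 (0.301%) passed, lower in operated rats, while 0 passed higher and 0 differed among sham, mTBI and sTBI. At an unadjusted p under 0.05, 17 were higher (5.12%) and 47 lower (14.2%), and DESeq2 called 27. Of the 332, 225 (67.8%) had 1 sign in all 3 operated groups without any test, 111 higher (33.4%) and 114 lower (34.3%). The feature was chr13.trna3809-GluCTC, a glutamate tRNA, at 4496, 10015 and 20911 CPM of tRNA UMIs in operated rats, against 11400, 37624, 25993 and 55475 CPM in naive rats. Only 8 of 15 operated rats were below the lowest naive rat, naive 1. Its log2 fold change was -1.59 (SE 0.30, edgeR adjusted p = 0.00839), with -1.08 in sham, -2.20 in mTBI and -1.50 in sTBI rats. With total tRNA counts the log2 fold change was -0.73 and did not pass. The call was also lost without naive 2 or naive 4, and near-identical tRNA genes share reads, so the feature itself is uncertain.

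By the amino acid the tRNA carries, glutamate, histidine and glycine features were low together relative to the rest of the table. All 20 glutamate features had a negative log2 fold change in all 3 operated groups (median -0.77, 13 lower at an unadjusted p under 0.05, 1 after adjustment), and so had all 12 histidine features (median -0.83, 11 and 0). Of 29 glycine features 21 were lower in all 3 groups (median -0.56, 16 and 0). Over all 332 features, 114 (34.3%) were lower and 111 (33.4%) higher in all 3 groups. At an unadjusted p under 0.05 by edgeR, 47 (14.2%) were lower and 17 (5.12%) higher. Near-identical tRNA genes share reads, so the features of 1 amino acid may not be independent. Of 15 aspartate features 13 were higher in all 3 (median 0.38, 4 higher at an unadjusted p under 0.05). Summed by anticodon, aspartate GTC had -0.17 instead, with 0.17 in sham, -0.57 in mTBI and -0.11 in sTBI rats. The sums were -0.92 for histidine GTG, -0.81 and -0.56 for glutamate CTC and TTC, and -0.53, -0.61 and -0.02 for glycine GCC, CCC and TCC. No sum passed, and the lowest edgeR adjusted p was 0.231. These signs were against the TMM scale. With total tRNA counts the median of all features moved to 0.71, the medians became -0.09 for glutamate, 0.03 for histidine and 0.20 for glycine, and 3 aspartate features passed as higher. Relative to the median of all features the glutamate median stayed between -0.80 and -0.64 under TMM, RLE, total counts and spike-in totals. Without the 4 libraries that stood apart the medians were -0.98 for glutamate, -1.38 for histidine, -0.83 for glycine and 0.38 for aspartate. Then 9, 12, 14 and 0 of their features passed, all as lower, against 38 lower and 1 higher of 346 over all tRNA features. Glycine and glutamate features made 74.9 and 21.1% of tRNA UMIs in operated rats, and 72.2 and 24.5% in naive rats.

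Features annotated as Piwi-interacting RNAs (piRNAs), which in germ cells silence transposons, gave no call by edgeR (0 of 77), against 5 by DESeq2. At an unadjusted p under 0.05, 6 were higher (7.79%) and 5 lower (6.49%), 11 in all (14.3%), and 50 (64.9%) had 1 sign in all 3 operated groups, 29 higher (37.7%) and 21 lower (27.3%). The smallest p was that of rno_piR_001200, with a log2 fold change of -1.12 (edgeR adjusted p = 0.0969).

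Measures of whole libraries leaned the same way without passing. tRNA reads made 22.5 ± 7.72% of all reads in operated rats (SD, n = 15) and 33.3 ± 7.93% in naive rats (SD, n = 4), a difference of -10.9 percentage points (two-sided exact permutation test, p = 0.0304, adjusted over 8 measures 0.0925). tRNA UMIs per spike-in UMI were 0.534-fold of the naive level (log2 -0.91, exact permutation p = 0.0464, adjusted 0.0925), and the share of piRNA reads was lower by 0.435 percentage points and that of discarded reads higher by 5.44, each with an adjusted p of 0.0925. The smallest p this design allows is 0.000516. miRNA UMIs per spike-in UMI differed by -0.29 on the log2 scale (exact permutation p = 0.284). The hemolysis measure, in which miR-451-5p of red cells is set against miR-23a-3p, differed by 0.36 on the log2 scale (exact permutation p = 0.361). The part of these differences in the miRNA and tRNA results was not tested beyond the scalings given above.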

How the data were processed

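Small RNA of tail-vein plasma from 19 rats was analysed. The counts deposited by the authors, of reads and of UMIs, are not normalized and cover 748 miRNAs, 104 piRNAs, 386 tRNA features and 54 spike-ins, plus reads per class. Per the study and the submitters' processing notes, reads were trimmed with cutadapt and aligned with Bowtie in sequence to miRBase, other RNA classes and Rnor_6.0 in a web portal, with mismatches allowed in a last pass, so near-identical miRNAs can share reads. PCR copies are removed in UMI counts only.

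UMI counts were tested with edgeR 4.0.16 in R 4.3.3 (TMM within each table, filterByExpr with a minimum count of 10, robust quasi-likelihood fit of the 4 groups, 15 residual degrees of freedom, Benjamini-Hochberg adjustment over all features of a table, threshold 0.05). The contrast was the mean of sham, mTBI and sTBI minus naive. The design followed the rule of equal weights in place of the study's test, DESeq2, and DESeq2 1.42.0 was an alternative. Other alternatives were read counts, no filter, RLE factors, total counts, spike-in totals, miRNA totals for tRNA, tRNA counts summed by anticodon, 1 operated group, a replicate block, a hemolysis covariate, counts under 10 set to 0, running numbers 10 to 20, and each library left out. Leaving out the 4 libraries that stood apart, for calls and list medians, and anticodon sums with spike-in totals, were chosen after seeing the data. Library measures were compared with exact permutation tests over 3876 assignments. The procedure was tested on simulated data. Further software was limma 3.58.1, Python 3.11.15, scipy 1.17.1, numpy 2.4.6, pandas 2.3.3 and matplotlib 3.10.9.

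The members, the lists of tissue miRNAs and the tests were chosen with earlier results of these data known. Among miRNAs that passed with 1 sign in all 3 groups, the text names at most 12 each way by size of change. It also names those that passed in each single contrast, up to 3 of each list with the smallest p, the candidates of the study and its reference. Named tRNA features are up to 8 each way and piRNAs up to 4 each way by the same rule. Sequences are from RefSeq, GRCr8. The failed naive library, RT-qPCR, ddPCR and other plasma samples of the study were not analysed here.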

Additional observations from a re-analysis of the deposited data

Results flagged for a closer look

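Of 116 groups of 4 or 5 values checked, 13 held a library far from the others of its group by Dixon's test, where chance gives about 1 in 20. For miRNA levels these were sTBI 2 for miR-323-3p (45.3 CPM, others 34.2 to 35.6), sham 5 for miR-3543 (11.4 CPM, others 9.95 to 10.4), mTBI 5 for miR-129-5p (13.3 CPM, others 16.3 to 17.4) and naive 4 for miR-129-5p (14.7 CPM, others 7.07 to 8.03). Further ones were naive 2 for miR-133c (38.3 CPM, others 15.3 to 18.1) and naive 3 for miR-488-3p (27.6 CPM, others 13.3 to 15.0).

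Among library measures, sham 1 was high in tRNA reads (34.4% of reads, others 21.8 to 24.9%) and low in discarded reads (15.8%, others 21.02 to 22.9%). naive 1 was high in miRNA reads (40.5%, others 29.1 to 29.8%) and mTBI 2 in piRNA reads (1.24%, others 0.315 to 0.535%). tRNA UMIs per spike-in UMI were high in sham 1 (12.9, others 6.83 to 8.15), mTBI 2 (23.7, others 2.37 to 8.36) and naive 3 (23.0, others 9.21 to 11.1).

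The change against naive rats differed between sham, mTBI and sTBI rats by the edgeR test for 7 of the 20 miRNAs that passed. Adjusted p-values were 2.25e-10 for miR-129-5p, 1.17e-09 for miR-323-3p, 4.09e-09 for miR-9a-3p, 4.80e-07 for miR-9a-5p, 5.98e-07 for miR-434-3p, 6.36e-05 for miR-3543 and 0.00142 for miR-382-5p.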

How the results depend on the processing

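The 20 miRNAs that passed became 11 with the operated rats as 1 group, 37 (25 higher, 12 lower) with DESeq2 and 10 without the 4 libraries that stood apart. Leaving out 1 library each gave 13 to 41, the lowest without naive 1 and the highest without naive 2. The count that also had 1 sign in all 3 operated groups was 36 with DESeq2, 9 without the 4 libraries and 12 to 40 with 1 library left out. The 18 that differed among the operated groups became 69 with DESeq2, 4 with running numbers 10 to 20 and 13 to 21 with 1 library left out. As 1 operated group, adjusted p-values were 0.0862 for miR-323-3p, 0.133 for miR-9a-3p and miR-9a-5p, and 0.257 for miR-129-5p.

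For tRNA, the single feature that passed, also counted with 1 sign in all 3 groups, became 3 higher with total counts, 3 lower with the hemolysis covariate, 27 (8 higher, 19 lower) with DESeq2 and 39 (1 higher, 38 lower) without the 4 libraries. It became 0 with spike-in totals, running numbers 10 to 20, the replicate block or sums by anticodon under either scaling, and 0 to 16 with 1 library left out (16 without mTBI 2, 13 without naive 1, 0 without naive 2 or naive 4). DESeq2 found 8 tRNA features that differed among the operated groups, edgeR 0. For piRNAs the count of 0 became 18 with total counts, 5 with DESeq2, 2 with counts under 10 set to 0, 1 with running numbers 10 to 20, 2 without the 4 libraries and 0 to 5 with 1 library left out (5 without mTBI 2, 1 without sTBI 5). miRNA UMIs per spike-in UMI changed sign to 0.0724 (log2) without the 4 libraries. With running numbers 10 to 20, the differences in tRNA reads (-12.8 percentage points), piRNA reads, discarded reads and tRNA UMIs per spike-in UMI passed (adjusted p = 0.0364, exact permutation test). The cause of these changes was not tested. Settings that leave libraries out also hold fewer rats, and the part of this was not tested either.

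Deviations of same-numbered libraries correlated between -0.44 and 0.35, over 0.1 in 9 of 27 pairs. Libraries with different numbers were not compared in this way, so these values do not decide whether replicate numbers pair the rats. With the replicate block 20 miRNAs passed, 19 of them among the 20, with miR-133a-5p lost.

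With 4 naive rats, and 7 to 17 UMIs of miR-323-3p in naive libraries, low miRNAs have wide errors, and changes smaller than those given may be missed.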
